A study of Mus musculus with 6 samples.

Results

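The 34 genes described here are the 13 mRNAs encoded by mitochondrial DNA (mtDNA) and 21 nuclear genes whose products copy that DNA, transcribe it and process its RNA. They were taken by symbol from the 35976 gene rows of the deposited table, where the mtDNA mRNAs carry upper-case symbols, and all 34 could be tested. Expression was measured by RNA sequencing in primary mouse adipocytes, described by their labels as Ppargc1a(fl/fl), so that all groups carry a Ppargc1a gene flanked by loxP sites. Adenovirus delivered either GFP, as the control, or the Cre recombinase, which cuts out DNA between loxP sites. An siRNA was given next, either a control siRNA or one against Rbm43, which encodes an RNA-binding protein, and the cells were then fully differentiated. The control group had GFP virus with control siRNA. In a second group GFP virus was combined with Rbm43 siRNA, and the last group had Cre virus followed by Rbm43 siRNA. Each group had 2 libraries called biological duplicates. The sources used here do not give the age of the animals or say whether the duplicates came from separate animals, so p-values measure only the spread between these libraries. Cre virus with control siRNA was not analysed here. All groups carry the floxed gene, so an effect of Cre virus itself cannot be told apart from one of losing Ppargc1a.

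Mitochondrial DNA encodes 13 subunits of the respiratory chain and ATP synthase, along with the rRNAs and tRNAs needed to translate them. Long precursor RNAs are transcribed from both strands by the polymerase POLRMT, cut mostly at the tRNAs that separate the genes, and then polyadenylated, stabilised or degraded by proteins imported from the cytosol. All the other subunits come from the nucleus, so the 2 genomes are expressed side by side, and in fat cells the balance bears on heat production and lipid oxidation. PGC-1alpha, the coactivator encoded by Ppargc1a, is known for raising nuclear genes of mitochondria, including those of mtDNA transcription.

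Libraries held 15775398 to 21961724 reads in genes, and in each group the replicates differed beyond sampling noise (chi-square per degree of freedom 4.19, 2.76 and 1.77 in the order of groups above). As a check of the labels, Rbm43 stood at 185 and 224 normalized counts in the controls, 43.7 and 46.6 after its siRNA with GFP virus, and 53.8 and 32.5 after its siRNA with Cre virus. Ppargc1a had 163 and 202, then 399 and 423, then 463 and 469. Reads from exons that are not excised enter these counts, so they do not check excision, and directions for Cre virus follow the library labels. Of 12 adipocyte markers all had a mean of at least 10 normalized counts, with Adipoq at 18219 to 23077. Preadipocyte and fibroblast markers (8 of 9 with a mean of at least 10) summed to 541583 to 592301 normalized counts, above the adipocyte sum of 251305 to 354069 in every library, with the collagens Col1a1 and Col3a1 taking most of it. Mural and smooth muscle markers (6 of 6) summed to 50070 to 71324, the 9 macrophage markers to 1580 to 1864 and the 6 endothelial markers to 245 to 355. The 5 skeletal muscle markers summed to 538 to 871, most of it in Acta1 at 506 to 828, with Tnnt3 at 18.7 to 41.3, Myh1 at 0 to 3.12, and Ckm and Myh4 at 0 in all libraries.

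Of the 13 mRNAs, 6 lie wholly within a stretch of mtDNA that also stands, almost letter for letter, in the nuclear genome. On the mm10 build the stretch runs from 6390 to 11042 of mtDNA, 4653 bases, and its copy from 24611535 to 24616188 of chromosome 1, minus strand, 4654 bases. There, 7 annotated pseudogenes follow each other in the order of the mitochondrial genes. Their alignments to COX1, COX2, ATP6, COX3, ND3, ND4L and ND4 covered 4140 bases with 2 mismatches. ATP8 lies between the COX2 and ATP6 alignments, which are 233 bases apart in both genomes, and of its letters only the 43 shared with ATP6 were compared. The first 30 bases of COX2 (chrM:7013-7042) and of its copy Gm28661 (chr1:24615536-24615565) are printed to show that their letters are the same, and COX1 (chrM:6390-6419) with Gm29216 and ND3 (chrM:9459-9488) with Gm28438 show the only 2 differences found. CYTB (chrM:14146-14175), outside the stretch, is set beside its more diverged copy Gm11410 on chromosome 4 for contrast. Capitals mark the bases that differ.
COX2: atggcctacccattccaacttggtctacaa
Gm28661: atggcctacccattccaacttggtctacaa
ND3: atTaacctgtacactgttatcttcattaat
Gm28438: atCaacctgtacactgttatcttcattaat
COX1: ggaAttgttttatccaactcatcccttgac
Gm29216: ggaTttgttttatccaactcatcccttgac
CYTB: tgacaaacatacGaaaaacacaCccattat
Gm11410: tgacaaacatacAaaaaacacaTccattat
Counted from the first base of each mRNA, the differences are T3C in ND3 and A1066T in COX1, and G14A and C24T within the window of CYTB. Over its whole alignment of 1142 bases CYTB differed from Gm11410 at 81 positions. ND6 differed from its copy Gm11408 at 33 of 519, and no copy of ND1 was found among the annotated transcripts at 85% identity.

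Levels per kilobase fell into 2 ranges along this boundary. COX2, ATP8, ATP6, COX3, ND3 and ND4L, the genes wholly inside the stretch, had mean normalized counts per kb of 243 to 3798. ND1, ND2, ND5, ND6 and CYTB, the 5 outside, had 40148 to 107920 per kb, so the lowest outside was 10.6-fold above the highest inside. COX1, with 31.3% of its length inside, had 304215 per kb, and ND4, with 63.6% inside, had 41879. The sources used here do not give how reads with several equally good positions were counted, and the part this had in the low values was not tested. The levels of the 6 genes inside are therefore uncertain, as are those of COX1 and ND4 for the parts inside. Sums, shares and ratios that include these genes carry the same limit, and the values below are the deposited counts.

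**Figure D1:**
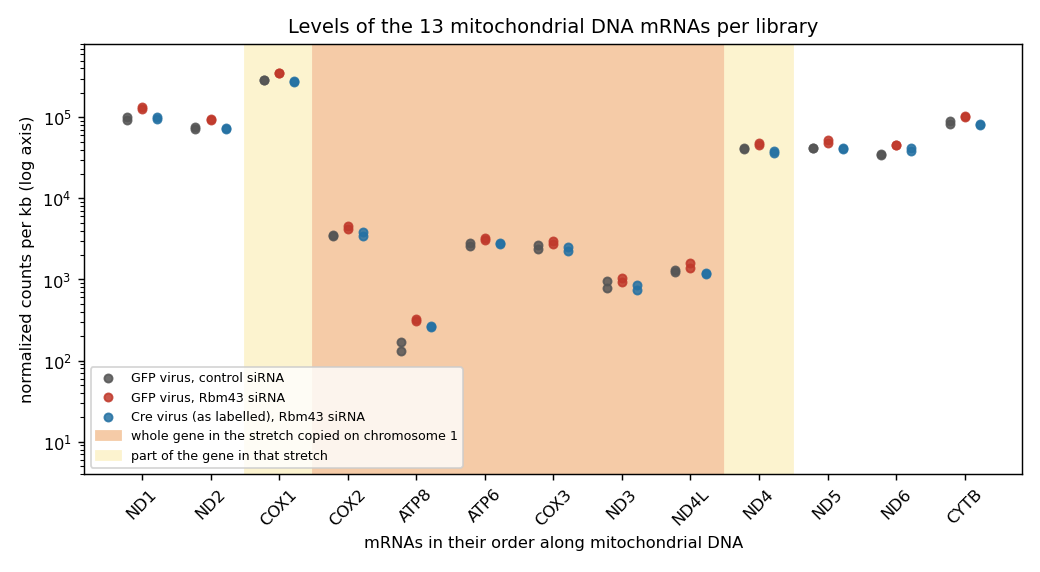
Normalized counts per kb (log axis) of the 13 mtDNA mRNAs in each library, in their order along mitochondrial DNA, with shading for genes wholly or partly inside the stretch copied on chromosome 1. Each dot is a library, and the 6 genes wholly inside lie at 243 to 3798 per kb on average against 40148 to 107920 for the 5 genes outside.

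The first comparison asked how the genes responded to Rbm43 siRNA when the virus carried GFP. Most mRNAs of mtDNA rose: 10 of 13 passed the test at an adjusted p under 0.05 (limma with a mean-variance trend over 14211 genes), against 13.5% of all genes tested that rose. None fell by limma, and none did at an unadjusted p under 0.05, with edgeR or with DESeq2 (0 in each). The log2 fold changes ran from 0.18 to 1.07 with a median of 0.26, where the median of all genes was −0.01. In 12 of the 13 both libraries with Rbm43 siRNA were above both with control siRNA, ND3 being the exception. Separation of this kind was not counted over all genes, so 12 of 13 has no background to be read against. The number rising was 5 with limma without the trend and 12 with edgeR.

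Of the 7 genes of complex I, the NADH dehydrogenase, 5 rose. ND1 had 97317 and 89211 normalized counts with control siRNA, 120060 and 126328 with Rbm43 siRNA under GFP virus, and 91377 and 95382 in the libraries labelled Cre virus. The middle pair stood above all 4 others. Its log2 fold change with Rbm43 siRNA was 0.40 ± 0.06 (SE; limma adjusted p = 3.08e-05). ND2 had 78737 and 74450, then 94643 and 98919, then 74624 and 76932, again with the middle pair highest and a log2 fold change of 0.34 ± 0.05 (limma adjusted p = 9.19e-05). ND5 rose by 0.26 ± 0.05 and ND4, partly inside the copied stretch, by 0.19 ± 0.05 on the log2 scale (limma adjusted p = 0.00134 and 0.00879). ND4 was not called without GFP virus, Rbm43 siRNA replicate 2, nor was ATP6.

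ND6 stands apart in the genome as the one mRNA transcribed from the opposite strand to the other 12, and in human cells its mRNA is known to lack a poly(A) tail. It had 18224 and 17855 normalized counts with control siRNA, 23481 and 23507 with Rbm43 siRNA under GFP virus, and 21943 and 20013 in the libraries labelled Cre virus. All 4 libraries with Rbm43 siRNA were above both controls, and the rise with GFP virus was 0.38 ± 0.05 (limma adjusted p = 1.16e-05). ND6 shares 14 bases with ND5 on the other strand, and no source used here gives the strand setting of the counting.

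CYTB, the mtDNA-encoded subunit of complex III, had 102862 and 94914, then 113717 and 119272, then 90547 and 94797 normalized counts. The pair with Rbm43 siRNA and GFP virus was again highest, with a log2 fold change of 0.24 ± 0.06 (limma adjusted p = 0.00442). COX1, the catalytic subunit of complex IV, was the highest of all 35976 rows by mean count and took 50.4% to 51.6% of the mtDNA mRNA counts in every library. It had 443718 and 442776 normalized counts with control siRNA, 536235 and 546629 with Rbm43 siRNA under GFP virus, and 419849 and 430865 in the libraries labelled Cre virus. The groups did not overlap, and the rise was 0.29 ± 0.06 (limma adjusted p = 0.00222). COX1 was the highest row of all 4 libraries in this comparison, so under quantile normalization it takes a single value there and its change is 0. In Cre virus replicate 1 it ranked 2, behind Scd1.

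Among the 6 genes inside the copied stretch, 3 rose. COX2, another core subunit of complex IV, had 2387 and 2322, then 2843 and 3079, then 2345 and 2609 normalized counts, a rise of 0.33 ± 0.06 (limma adjusted p = 3.46e-04). ATP6, which forms part of the proton path of ATP synthase, rose by 0.24 ± 0.06 (limma adjusted p = 0.00436). ATP8, a small ATP synthase subunit, had the largest log2 fold change of the 34 genes, 1.07 ± 0.21 (limma adjusted p = 9.64e-04), from the lowest counts: 34.3 and 26.8, then 63.1 and 66.2, then 52.9 and 54.5. These rested on as few as 22 reads in a library, and ATP8 shares 43 bases, 21.1% of its length, with ATP6. COX3, ND4L and ND3 had log2 fold changes of 0.18 ± 0.07, 0.24 ± 0.09 and 0.18 ± 0.11 (limma adjusted p = 0.0540, 0.0534 and 0.275). The median log2 fold change was 0.24 for the 6 genes inside, 0.24 for the 2 partly inside and 0.34 for the 5 outside, all 5 of which rose.

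Summed over the 13 mRNAs, mtDNA took 4.56% and 4.47% of all normalized counts with control siRNA, 5.31% and 5.56% with Rbm43 siRNA under GFP virus, and 4.32% and 4.42% in the libraries labelled Cre virus. The difference was 0.920 percentage points with Rbm43 siRNA and −1.07 percentage points with Cre virus (exact permutation p = 0.33 each, two-sided, the smallest p that 2 against 2 libraries allow). From the 5 mRNAs outside the copied stretch alone, an alternative added after seeing the data, the shares were 1.93% and 1.84%, then 2.23% and 2.37%, then 1.84% and 1.88%.

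Ratios between mRNAs within mtDNA were compared next. ND6 counts per 100 counts of the other 12 mRNAs were 2.113 and 2.123 with control siRNA, 2.30 and 2.22 with Rbm43 siRNA under GFP virus, and 2.71 and 2.40 in the libraries labelled Cre virus. No 2 groups overlapped, and the order of the groups differed from that of the summed share (exact permutation p = 0.33 for each pair of groups, two-sided, the smallest possible). Per 100 counts of ND5, ND6 was at 24.0 and 23.3, then 26.8 and 24.9, then 29.1 and 26.7. By that ratio Cre and GFP virus under Rbm43 siRNA overlapped (exact permutation p = 0.67, two-sided). The strand setting of the counting is not given, so both ND6 ratios are uncertain. CYTB counts per 100 counts of ND1 were 106 and 106 with control siRNA, 94.7 and 94.4 with Rbm43 siRNA under GFP virus, and 99.1 and 99.4 in the libraries labelled Cre virus. The groups did not overlap in CYTB counts per ND1 count (exact permutation p = 0.33 each). ND1 and CYTB lie near opposite ends of the coding part of one strand, ND1 at 2751 to 3707 and CYTB at 14145 to 15288, and the ratio was chosen after its values were seen.

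**Figure D2:**
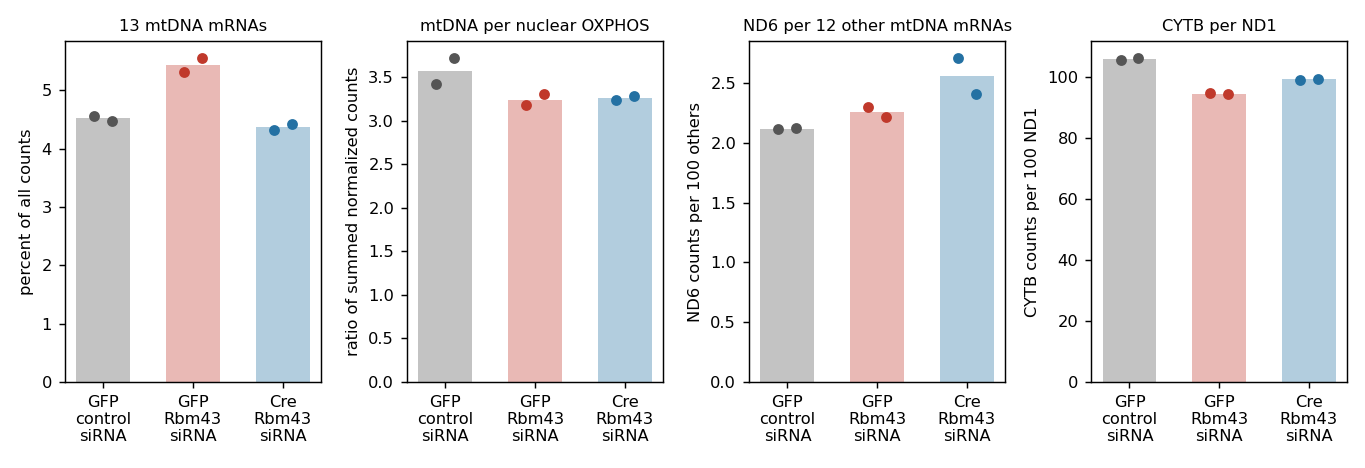
Share of all counts in the 13 mtDNA mRNAs, their counts per nuclear OXPHOS count, ND6 per 100 counts of the 12 other mtDNA mRNAs, and CYTB per 100 counts of ND1, with bars at group means and dots for the 2 libraries of each group. The share is highest with GFP virus and Rbm43 siRNA (5.31% and 5.56%), ND6 relative to the others is highest in the libraries labelled Cre virus (2.71 and 2.40), and CYTB relative to ND1 is lowest with GFP virus and Rbm43 siRNA (94.7 and 94.4).

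The nuclear genes of the machinery moved unevenly with Rbm43 siRNA: 11 of 21 rose, read against the same 13.5% of all genes, with a median log2 fold change of 0.27 and a range of −0.09 to 0.62. None fell by limma, at an unadjusted p under 0.05, with edgeR or with DESeq2 (0 in each). In 15 of the 21 both libraries with Rbm43 siRNA were above both with control siRNA, a separation not counted over all genes. The number rising was 7 with DESeq2, 6 with limma without the trend, and 7 when GFP virus, Rbm43 siRNA replicate 1 was left out. Together the 21 genes took 0.0593% and 0.0594% of counts with control siRNA, 0.0696% and 0.0720% with Rbm43 siRNA under GFP virus, and 0.0630% and 0.0622% in the libraries labelled Cre virus.

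The 3 genes of mtDNA replication did not pass the test. Polg, the replicative polymerase, had 983 and 958 normalized counts with control siRNA and 1043 and 1077 with Rbm43 siRNA, a log2 fold change of 0.13 ± 0.06 (limma adjusted p = 0.147). Polg2, its accessory subunit, was at −0.09 ± 0.20 and the single-stranded DNA-binding protein Ssbp1 at 0.11 ± 0.07 (limma adjusted p = 0.793 and 0.295).

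Of the 4 genes of transcription 2 rose, the polymerase and its elongation factor. Polrmt, the RNA polymerase, had 341 and 332 normalized counts with control siRNA and 448 and 382 with Rbm43 siRNA, a rise of 0.30 ± 0.09 (limma adjusted p = 0.0226), and was not called without GFP virus, Rbm43 siRNA replicate 1 or without either Cre library. Tefm, the elongation factor, had 250 and 240, then 339 and 302, a rise of 0.39 ± 0.10 (limma adjusted p = 0.00625). It was not called without GFP virus, Rbm43 siRNA replicate 1. Tfam, which packages mtDNA and binds its promoters, had 575 and 638, then 632 and 648, groups that overlapped, with a log2 fold change of 0.08 ± 0.07 (limma adjusted p = 0.493). Tfb2m, the initiation factor that opens the promoter, was at 560 and 529, then 537 and 551, a log2 fold change of −0.00 ± 0.08 (limma adjusted p = 0.996). An annotated pseudogene, Gm1818, matches 48.5% of its length at 99.3% identity. Tfb1m, a methyltransferase of the small mitochondrial rRNA, was at 0.03 ± 0.17 (limma adjusted p = 0.934), with the sign turning under upper-quartile scaling.

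Of the 3 genes of mRNA stability and polyadenylation 2 rose with Rbm43 siRNA. Lrpprc binds mitochondrial mRNAs and holds them stable together with its partner Slirp. Lrpprc had 1333 and 1464 normalized counts with control siRNA, 1794 and 2012 with Rbm43 siRNA under GFP virus, and 1532 and 1480 in the libraries labelled Cre virus. It rose by 0.44 ± 0.06 (limma adjusted p = 4.00e-05). Slirp had 830 and 661, then 1040 and 1027, then 861 and 904, and rose by 0.48 ± 0.08 (limma adjusted p = 2.54e-04). In the annotation 93.9% of the exonic length of Slirp lies opposite exons of Snw1, so its count is uncertain where strand was not used. Mtpap, the poly(A) polymerase, was at 0.08 ± 0.06 (limma adjusted p = 0.451).

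Both genes of RNA degradation rose. Supv3l1, a helicase, had 601 and 626, then 738 and 739 normalized counts, and Pnpt1, the exonuclease that works with it, had 750 and 835, then 931 and 937. The rises were 0.27 ± 0.07 and 0.24 ± 0.07 (limma adjusted p = 0.0115 and 0.0139). Neither was called without GFP virus, Rbm43 siRNA replicate 1 or replicate 2, and Pnpt1 was not called without control replicate 1.

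The FASTK family, RNA-binding proteins of mitochondria that each affect particular mtDNA transcripts, held the 2 largest log2 fold changes of the 21 genes, and 4 of 6 rose. Fastkd1 had 262 and 263 normalized counts with control siRNA, 412 and 397 with Rbm43 siRNA under GFP virus, and 326 and 324 in the libraries labelled Cre virus. The 3 groups did not overlap, and the rise was 0.62 ± 0.09 (limma adjusted p = 2.72e-05). Tbrg4, also called FASTKD4, which stabilises several mtDNA mRNAs, had 625 and 542, then 871 and 907, then 721 and 743, and rose by 0.61 ± 0.07 (limma adjusted p = 5.41e-06). Fastkd5, which acts in cutting precursors that no tRNA separates, had 254 and 275, then 370 and 347, then 275 and 300, and rose by 0.44 ± 0.10 (limma adjusted p = 0.00208). It shares 65.2% of its exonic length with Ubox5 on the same strand, and its count is uncertain for that reason. Fastk, whose mitochondrial form is needed for ND6 mRNA, had 1050 and 932, then 1281 and 1297, then 1125 and 1145, and rose by 0.38 ± 0.06 (limma adjusted p = 2.00e-04). Exons of Slc4a2 lie opposite 26.1% of its exonic length. Fastkd3 and Fastkd2 were at 0.27 ± 0.12 and 0.10 ± 0.10 (limma adjusted p = 0.105 and 0.541).

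Of the tRNA-end genes, Trmt10c, a subunit of the enzyme that cuts the 5′ ends of mitochondrial tRNAs, had 407 and 391, then 492 and 529 normalized counts, and rose by 0.36 ± 0.08 (limma adjusted p = 0.00333). Elac2, which cuts the 3′ ends, was at 0.03 ± 0.07 (limma adjusted p = 0.808), with the sign turning under upper-quartile scaling. Trmt10c was not called without GFP virus, Rbm43 siRNA replicate 2.

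**Figure D3:**
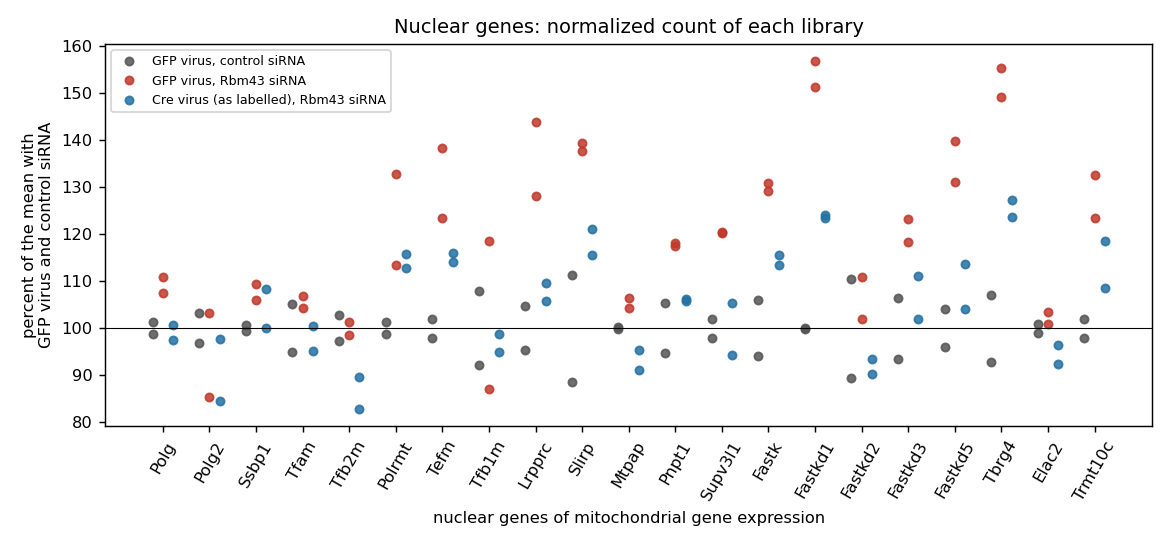
Normalized count of each library for the 21 nuclear genes, as percent of the mean of the 2 libraries with GFP virus and control siRNA. Dots are libraries, and those with GFP virus and Rbm43 siRNA are highest for Fastkd1, Tbrg4, Fastkd5, Slirp and Lrpprc, while they overlap the controls for Tfam, Tfb2m and Polg2.

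In 9 of the 34 genes the rise with Rbm43 siRNA was called under every one of the 19 alternative settings: ND1, ND2, ND6, ATP8, Lrpprc, Fastk, Fastkd1, Fastkd5 and Tbrg4. Calls kept under every setting were not counted over all genes, so 9 of 34 has no background to be read against. Most markers of fat cells also rose with Rbm43 siRNA. The 12 adipocyte markers summed to 268472 and 251305 normalized counts with control siRNA, 344919 and 354069 with Rbm43 siRNA under GFP virus, and 294701 and 292641 in the libraries labelled Cre virus. This sum stayed above both controls with Cre virus, but its members did not move together. Of the 12 markers 4 rose and 3 fell with Cre virus against the controls, where 8.47% and 6.28% of all genes did. Fabp4 was the largest part of the sum, at 137846 and 125494, then 191083 and 190516, then 159622 and 162219. Adipoq had 22094 and 21331, then 22453 and 23077, then 18345 and 18219. Of the 12 markers 9 rose with Rbm43 siRNA and 1, Retn, fell, against 13.5% and 9.76% of all genes. With Cre against GFP virus 8 fell, against 5.88% of all genes. Mural and smooth muscle markers summed to 55356 and 50070 with control siRNA and to 59666 and 57248 with Rbm43 siRNA under GFP virus. Of these 6 markers 3 rose (Acta2, Myh11 and Cspg4), against the same 13.5%. Of 8 preadipocyte and fibroblast markers tested 1, Col1a1, fell, and of 9 macrophage markers 2 fell, against the same 9.76%. Their part in the results was not tested, and in bulk samples fewer cells of a type and less RNA per cell cannot be told apart.

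Nuclear subunits of the same complexes were set beside the mtDNA mRNAs. Of 75 nuclear genes of complexes I, III, IV and V of oxidative phosphorylation (OXPHOS), 68 rose with Rbm43 siRNA, against 13.5% of all genes, with a median log2 fold change of 0.45 against 0.26 for the mtDNA mRNAs. The medians of nuclear and mtDNA genes were 0.45 and 0.26 in complex I, 0.44 and 0.24 in complex III, which has CYTB alone, and 0.56 and 0.29 in complex IV. In complex V they were 0.38 for the nuclear genes and 0.65 for the pair of ATP6 and ATP8, whose values lie far apart. Counts of mtDNA mRNAs per nuclear OXPHOS count were 3.42 and 3.72 with control siRNA, 3.17 and 3.30 with Rbm43 siRNA under GFP virus, and 3.24 and 3.28 in the libraries labelled Cre virus. The controls lay above the other 4 libraries (exact permutation p = 0.33 for each, two-sided, the smallest possible).

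**Figure D4:**
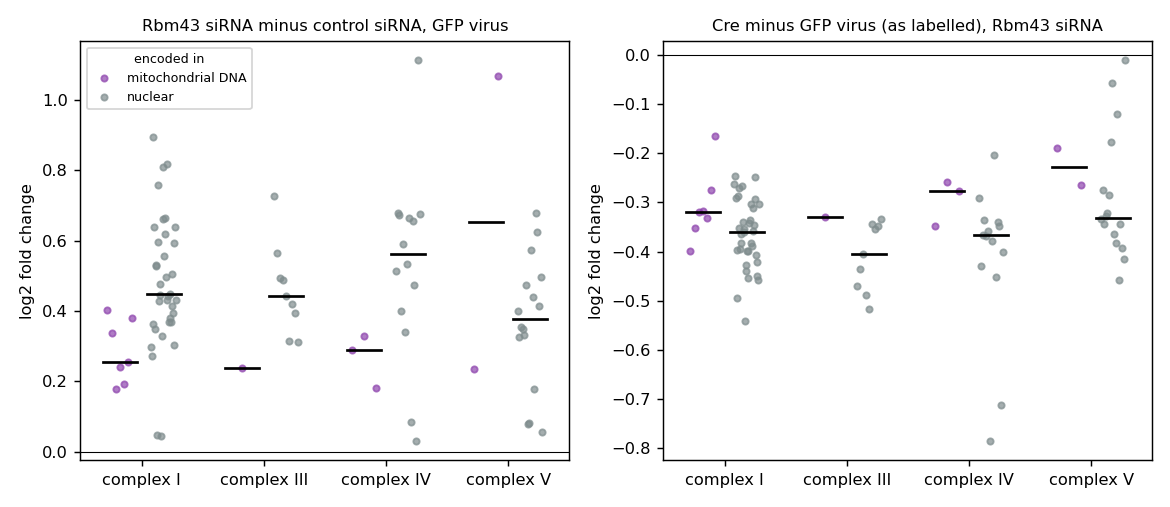
Log2 fold change of each mtDNA-encoded and nuclear-encoded subunit of complexes I, III, IV and V, with Rbm43 siRNA against control siRNA (left) and with Cre against GFP virus (right), whose vertical axes differ. Dots are genes and black lines medians, at 0.26 for mtDNA and 0.45 for nuclear genes of complex I on the left and −0.32 and −0.36 on the right.

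Other genes of mitochondrial gene expression fell into 5 lists with 105 genes tested. With Rbm43 siRNA 28 of them rose and 3 fell, against 13.5% and 9.76% of all genes, with a median log2 fold change of 0.10. Translation factors led with 8 rising of 17, among them Ict1, a ribosome rescue factor, by 0.71 and the elongation factors Gfm2 and Gfm1 by 0.49 and 0.47, and the initiation factor Mtif2 by 0.45. Of 23 genes of transcription termination and RNA processing 8 rose, among them Taco1, the translational activator of COX1, by 0.52, Mrpl12, a ribosomal protein, by 0.47, Lactb2, an endoribonuclease, by 0.40, and Ptcd2 by 0.38. Of 20 tRNA synthetases and amidotransferase genes 6 rose and 1, Hars2, fell, and of 25 tRNA and rRNA modification genes 4 rose (Osgepl1, Trmu, Cdk5rap1 and Nsun3). Of 20 genes of mtDNA replication and repair 2 rose and 2 fell: Endog and Atad3a were at 0.54 and 0.46, and Dguok and Mpv17, both tied to the supply of nucleotides for mtDNA, at −0.42 and −0.21. Among 10 regulators of nuclear mitochondrial genes, 4 rose, against the same 13.5% of all genes: Ppara by 1.33, Ppargc1a by 1.17, Ppargc1b by 1.07 and Esrra by 0.62.

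The second comparison asked how the genes differed once Cre virus, meant to remove Ppargc1a, replaced GFP virus under Rbm43 siRNA. The pair that received GFP virus and Rbm43 siRNA enters the first comparison too, so that opposite signs in the pair are not independent. Most mRNAs of mtDNA fell in the libraries labelled Cre virus: 11 of 13 did, against 5.88% of all genes tested that fell, 2.62% that rose and 8.5% called in either direction. None rose by limma, at an unadjusted p under 0.05, with edgeR or with DESeq2 (0 in each). The median log2 fold change was −0.32 and the range −0.40 to −0.16. In all 13 both Cre libraries lay below both GFP libraries, a separation not counted over all genes. The number falling was 9 with DESeq2 and 6 without the filter on low counts. Leaving out GFP virus, Rbm43 siRNA replicate 2 gave 6, and leaving out Cre virus replicates 1 and 2 gave 3 and 5. With limma without the trend 0 fell, with 10 at an unadjusted p under 0.05.

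ND1 was at −0.40 ± 0.06, ND2 at −0.35 ± 0.05, COX1 at −0.35 ± 0.06, ND4 at −0.33 ± 0.05 and CYTB at −0.33 ± 0.06 (limma adjusted p = 1.59e-04, 2.42e-04, 0.00134, 3.01e-04 and 8.28e-04). ND5 and COX3 fell by 0.27 and 0.28, COX2 by 0.26 and ND4L by 0.32 on the log2 scale. ND6 and ATP6 had the smallest changes, −0.16 ± 0.05 and −0.19 ± 0.06 (limma adjusted p = 0.0455 and 0.0416). Each of these 2 was called in 8 of the 19 alternatives. Both calls were lost when any 1 of the 4 libraries compared was left out, under each of 4 other scalings (upper-quartile, total, total without the mtDNA mRNAs, and quantile) and without the filter. ND1, ND2 and ND4 were called in 18 of 19, the exception being limma without the trend. COX1 was not called under quantile normalization (−0.08, adjusted p = 0.415) or without either Cre library. ND3 was at −0.32 ± 0.11 and ATP8 at −0.26 ± 0.21 (limma adjusted p = 0.0872 and 0.536). By place, the median was −0.27 for the 6 genes inside the copied stretch, of which 4 fell, −0.34 for the 2 partly inside and −0.33 for the 5 outside, which all fell.

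Of the 21 nuclear genes 5 fell with Cre virus, against 5.88% of all genes tested, with a median log2 fold change of −0.18. In 17 both Cre libraries lay below both GFP libraries, a separation for which no share of all genes was counted. None rose by limma, at an unadjusted p under 0.05, with edgeR or with DESeq2 (0 in each). The 5 were Lrpprc at −0.34 ± 0.06, Fastkd5 at −0.32 ± 0.10, Fastkd1 at −0.31 ± 0.09, Tbrg4 at −0.28 ± 0.07 and Supv3l1 at −0.27 ± 0.07 (limma adjusted p = 0.00219, 0.0442, 0.0284, 0.0228 and 0.0245). The 4 transcription genes did not pass, with Tfb2m at −0.21 ± 0.08, Tefm at −0.18 ± 0.10, Tfam at −0.11 ± 0.07 and Polrmt at −0.10 ± 0.09 (limma adjusted p = 0.0991, 0.293, 0.447 and 0.575). The count was 1 with DESeq2 and 1 without the filter, and 9 when only the libraries compared were fitted or either control library was left out. Leaving out GFP virus, Rbm43 siRNA replicates 1 and 2 gave 1 and 0 (10 and 7 at an unadjusted p under 0.05), and leaving out either Cre library gave 0, where 6 and 7 genes had an unadjusted p under 0.05. With limma without the trend it was also 0, with 7 at an unadjusted p under 0.05.

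**Figure D5:**
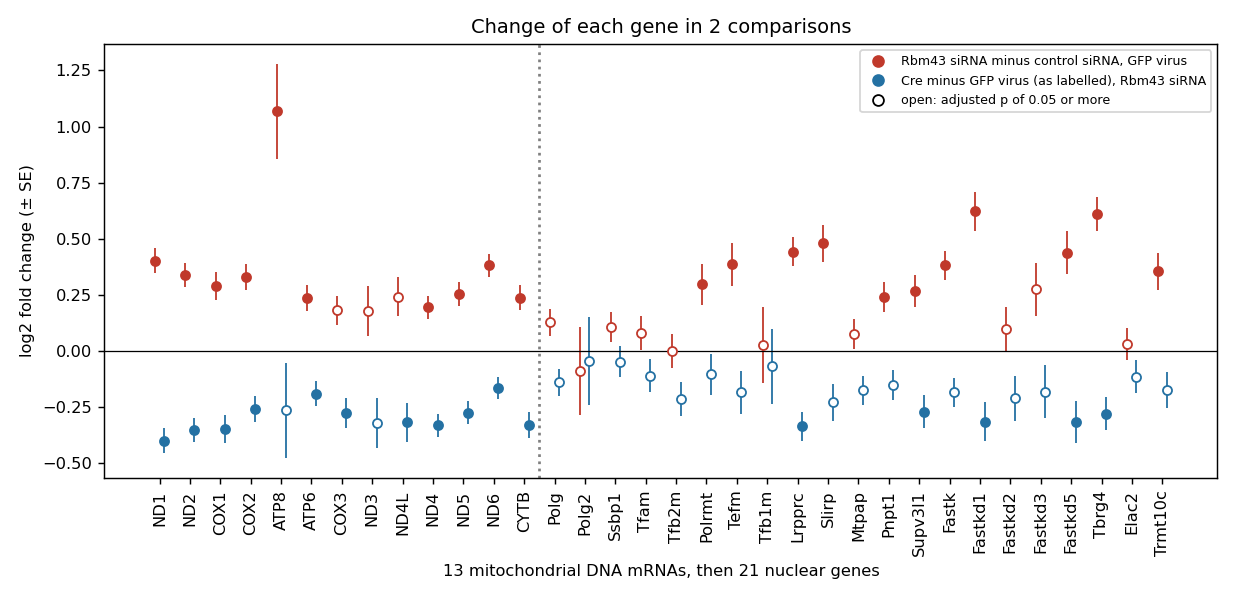
Log2 fold change with its standard error for each of the 34 genes in both comparisons, with filled dots for an adjusted p under 0.05. With Rbm43 siRNA 10 mtDNA mRNAs and 11 nuclear genes rose, and in the libraries labelled Cre virus 11 and 5 fell, with ATP8 at 1.07 the largest change.

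Nuclear OXPHOS genes fell beside the mtDNA mRNAs in the libraries labelled Cre virus, 67 of 75 with a median of −0.36, against 5.88% of all genes, and mtDNA counts per nuclear OXPHOS count overlapped between the groups (difference 0.0224, exact permutation p = 1, two-sided). By complex the medians of nuclear and mtDNA genes were −0.36 and −0.32 in complex I, −0.41 and −0.33 in complex III, −0.37 and −0.28 in complex IV and −0.33 and −0.23 in complex V. In the 5 further lists 15 of 105 genes fell, read against the same 5.88%, with a median of −0.15. They included Mrpl12 at −0.45, Taco1 at −0.42, Fars2 at −0.47, Aars2 at −0.41, the elongation factor Tufm at −0.34, Gfm1 at −0.33 and Dguok at −0.37. Of the regulators, Ppara, Ppargc1b and Esrra fell by 0.95, 0.48 and 0.46, and Ppargc1a was at 0.18 ± 0.10 (limma adjusted p = 0.330). Mural and smooth muscle markers (6 of 6 with a mean of at least 10) summed to 59666 and 57248 normalized counts with GFP virus and Rbm43 siRNA and to 68193 and 71324 in the libraries labelled Cre virus, and 4 of 6 rose (Acta2, Tagln, Myh11 and Des), against 2.62% of all genes. The 5 skeletal muscle markers summed to 625 and 538, then 832 and 871, and Acta1 rose. Their part in these results was not tested.

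The third comparison set the libraries labelled Cre virus against the controls, sharing libraries with both others. Of the mtDNA mRNAs 2 rose, ND6 at 0.22 ± 0.05 and ATP8 at 0.80 ± 0.21 (limma adjusted p = 0.00536 and 0.0140), against 8.47% of all genes tested, and the median was −0.02. None fell by limma, against 6.28% of all genes, with 1 lower at an unadjusted p under 0.05 (ND4 at −0.14 ± 0.05, whose sign turned under quantile normalization), 1 falling with edgeR and 0 with DESeq2. The number rising was 1 with DESeq2, 0 with limma without the trend (2 at an unadjusted p under 0.05) and 1 without the filter. ND6 was not called without Cre virus replicate 1, and ATP8 was not called without either Cre library or without control replicate 2. Of the 21 nuclear genes 4 rose, against the same 8.47% of all genes. They were Tbrg4 at 0.33 ± 0.07, Fastkd1 at 0.31 ± 0.09, Slirp at 0.25 ± 0.08 and Fastk at 0.20 ± 0.06 (limma adjusted p = 0.00462, 0.0219, 0.0471 and 0.0446). None fell by limma or edgeR, with 1 lower at an unadjusted p under 0.05 in each, nor with DESeq2. Without either Cre library the number rising was 0, with 4 genes at an unadjusted p under 0.05. Slirp and Fastk were not called without control replicate 2. Of the nuclear genes 1 rose with DESeq2, 0 with limma without the trend (5 at an unadjusted p under 0.05), and 2 without either library of GFP virus with Rbm43 siRNA. Of the mural and smooth muscle markers 5 of 6 rose (Acta2, Tagln, Myh11, Rgs5 and Des), against 8.47% of all genes. Acta1 among the skeletal muscle markers and 1 of 6 endothelial markers, Kdr, rose too. Of the 12 adipocyte markers 4 rose and 3 fell. Of the 9 macrophage markers 1 fell, and of 8 preadipocyte and fibroblast markers tested 0 were called. The share of all genes that fell was 6.28%. The part of these cell types in the third comparison was not tested.

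Promoters of the nuclear genes were read for letters that transcription factors of mitochondrial genes are known to bind. RefSeq promoters (GRCm38.p6, 250 bases before to 50 after the start) matched 20 of the 21. The letters CCGGAAG, a form of the site of the GABP (NRF-2) family, were searched on both strands. They stood in the promoters of 11 of 20 genes (55.0%), against 9.93% of 27025 genes and 8.86% of 32851 promoters. These backgrounds were not limited to genes expressed here. The median GC content was 60.3% for the 20 promoters and 52.7% for all. The letters stood in 7 of the 11 risers under Rbm43 siRNA and in 4 of the 9 others with a promoter entry, Tfam, Polg, Polg2 and Ssbp1. Of windows around the letters, Tbrg4 (chr11:6626154-6626183), Fastk (chr5:24445275-24445304) and Tefm (chr11:80142144-80142173) are from genes that rose, and Tfam (chr10:71238073-71238102) from one that did not pass. Tefm, Fastk, Tbrg4 and Tfam all lie on the minus strand, windows are written 5′ to 3′ along the gene, and capitals mark the letters searched.
Tbrg4: acttcccagtaCCGGAAGcctgagcgcaac
Fastk: gtgcgcatttcCCGGAAGcggagggcgggg
Tefm: agcacacgaaaCCGGAAGttgaggaggaac
Tfam: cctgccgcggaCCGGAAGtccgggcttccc
The letters AAGGTCA, the core bound by the estrogen-related receptors, stood in 1 promoter (Fastkd5, 5%) against 4.72% of all. A pair of forms of the NRF-1 site stood in 1 (Fastkd3, 5%) against 3.02%. A match describes letters in this window and shows no binding.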

How the data were processed

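RNA from 6 libraries was sequenced as paired ends from a stranded mRNA kit, per the labels' protocols. Named in the submitters' processing notes, without roles, are the mm10 build and the tools STAR 2.7.8, fastp 0.23.2 and DESeq2 2.11.40.7. The deposited signal is, from its values, read counts that the authors divided by 1 size factor per library: all values (100%) became whole reads, within 0.01, when divided by the value of 1 read (0.878 to 1.22). The sources used here do not give the gene counter, its strand setting or its handling of reads with several positions. Tests covered the 14211 genes with a normalized count of 10 or more in 2 or more libraries, by limma 3.58.1 (R 4.3.3, mean-variance trend, log2(normalized count + 1), 1 fit of 3 group means, 3 residual degrees of freedom), with Benjamini-Hochberg adjusted p under 0.05 as the call. Fold changes are on that scale and understate changes of low genes. The recovered reads were tested with edgeR 4.0.16 and DESeq2 1.42.0 as alternatives. A run of limma on simulated data gave every gene and library the same dispersion. Replicate spread differed between the groups here, so that run does not bear on the calls. Named genes were all 34 members, Rbm43 and Ppargc1a, up to 4 genes with the smallest p of each further list, and members of counts of 5 or fewer. Members and lists were chosen with earlier results of these data known. The labels do not say whether replicate numbers pair libraries, and correlations of their deviations between groups were 0.0187, −0.0420 and −0.0373. Lengths, overlaps and positions came from GENCODE M21 (mm10). Copies were sought with blastn 2.17.0 (word size 16, at least 85% identity over 40 bases) among annotated transcripts.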

Additional observations from a re-analysis of the deposited data

How the results depend on the processing

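With 2 libraries a group, single libraries and the model for the spread decide many calls, and counts of a few reads limit ATP8. Each comparison was repeated under 19 alternatives, and the largest median shift of all genes was 0.0424 on the log2 scale. Of 1938 values of single genes under an alternative, 1726 kept direction and call, 150 kept direction and lost the call, 30 gained it, 1 was at 0 and 31 changed sign, of which 0 were called under either setting. The value at 0 was COX1 under quantile normalization with Rbm43 against control siRNA, by construction, since it was the highest row of those 4 libraries. Signs turned under upper-quartile scaling for Elac2 (−0.00589) and Tfb1m (−0.00942) with Rbm43 siRNA and for ND1 (−0.0191) in the third comparison, under quantile normalization for ND4 (0.0127) there, and with edgeR for Supv3l1 (0.00176) there and Tfb2m (0.000668) with Rbm43 siRNA. The other 25 turned with a library left out, where log2 fold changes with Rbm43 siRNA ran from −0.0548 to 0.250 for Fastkd2, −0.0407 to 0.0392 for Tfb2m, −0.225 to 0.0467 for Polg2 and −0.194 to 0.248 for Tfb1m. With Cre against GFP virus they ran from −0.218 to 0.00901 for Polrmt, −0.180 to 0.0916 for Polg2, −0.290 to 0.152 for Tfb1m and −0.105 to 0.00943 for Ssbp1. In the third comparison they ran from −0.266 to 0.0389 for Fastkd2, −0.0834 to 0.0770 for Supv3l1, −0.104 to 0.0445 for Tfam, −0.000310 to 0.186 for Fastkd3, −0.153 to 0.0709 for Tfb1m, −0.0354 to 0.0110 for Polg, −0.0599 to 0.0656 for ND1, −0.0554 to 0.0253 for ND2 and −0.00578 to 0.148 for COX2. For other changes the cause was not tested. In the comparison of Rbm43 with control siRNA, limma without the trend called 5 mtDNA and 6 nuclear genes and 1304 of all genes, and DESeq2 called 7 nuclear genes and 2045 of all genes. With each library left out, the counts were 8 to 12 mtDNA, 7 to 11 nuclear and 2115 to 3633 of all genes. In the comparison of Cre with GFP virus, limma without the trend called 0 mtDNA (10 at an unadjusted p under 0.05), 0 nuclear (7) and 0 of all genes (2355). Without the filter the calls were 6, 1 and 609, DESeq2 called 1 nuclear gene, and fitting only the groups compared called 9 nuclear genes and 2083 of all. With each library left out, counts were 3 to 12 mtDNA, 0 to 9 nuclear and 312 to 2068 of all genes. In the third comparison DESeq2 called 1 mtDNA and 1 nuclear gene and 1229 of all, limma without the trend 0 (2 at an unadjusted p under 0.05), 0 (5) and 433, and no filter 1, 2 and 1251. Quantile normalization and fitting only the groups compared each called 2 nuclear genes. With each library left out, counts were 0 to 3 mtDNA, 0 to 4 nuclear and 770 to 2654 of all. The share of counts in mtDNA mRNAs kept its direction except per nuclear OXPHOS count, a different quantity, which was −0.336 for Rbm43 siRNA and 0.0224 for Cre virus. With the replicate block the mtDNA counts were 12, 10 and 2 and the nuclear counts 11, 5 and 4. Every group holds numbers 1 and 2, so the block cannot change a log2 fold change, only its call. Share differences within numbers 1 and 2 were 0.752 and 1.09, then −0.992 and −1.14, then −0.240 and −0.0538 percentage points, with the same sign in both numbers. The labels do not say whether the replicate numbers pair the libraries.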

Other observations

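Other annotated copies of mtDNA mRNAs lay outside the stretch on chromosome 1. A copy of COX1 on chromosome 2, Gm13340, matched all 1545 bases at 97.6% identity with 37 mismatches, and a copy of COX2 on the same chromosome, Gm13341, matched all 684 bases at 95.9% with 16 mismatches. COX1 had 304215 normalized counts per kb and COX2 3798. ND2 matched Gm13339 on chromosome 2 over 510 bases at 96.7%, and ND5 matched Gm4076 on chromosome 13 over 954 bases at 95.2%, with 80011 and 44282 counts per kb.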
